A study of Mus musculus with 4 samples.

Results

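Aminoacyl-tRNA synthetases were followed in the ventricles of mouse embryos that lacked Hif1a, which encodes the HIF-1 subunit controlled by oxygen, in cells descended from early heart precursors. The members were the rows of the deposited gene table whose identifier maps to 36 listed symbols. Symbols that end in 2 form the mitochondrial set (16 genes) and the others the cytosolic set (20 genes), so the members are 36 of the 38293 genes in the table, and each of the 36 passed the filter on low counts. Ventricular RNA, free of atria and valves, came from single embryos of litter 6 at stage E12.5, on a C57BL/6 background, matched between groups by their number of somites. All embryos were homozygous for a Hif1a allele flanked by loxP sites. The knockout group, called cKO here (genotype Hif1alphaflox/flox/Nkx2.5Cre/+), also had Cre recombinase in 1 copy of Nkx2.5, a gene active early in the heart lineage, while littermate controls (Hif1alphaflox/flox/Nkx2.5+/+) lacked Cre. There were 2 libraries per group, with the numbers 2 and 3 in each. A Cre-only group was not among the samples, so loss of Hif1a and the presence of Cre at Nkx2.5 cannot be told apart.

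A synthetase attaches an amino acid to its tRNA, the step that gives the genetic code its meaning during translation. Animal cells keep separate nuclear genes for the enzymes that work in the cytosol and for those imported into mitochondria, where they serve the few proteins that mitochondrial DNA encodes. Gars and Kars, counted with the cytosolic set here, are known to supply the enzyme to both compartments. When tRNAs stay uncharged, the kinase GCN2 (gene Eif2ak4) slows general translation and favours the transcription factor ATF4, whose known target genes include many cytosolic synthetases.

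Several cytosolic synthetases carry the sequence to which ATF4 and C/EBP proteins are known to bind as a pair, here searched as TGATGNAA on both strands in RefSeq promoter windows (250 bases before to 50 after a start, GRCm38.p6). Sequence played no part in the choice of members, but the motif was chosen with earlier results of these data known. Of the 13 cytosolic members with a window, 5 held the motif (38.5%), against 0 of 14 mitochondrial members and 3.97% of all 32851 windows. The stretches below are written 5′ to 3′ on the gene's strand, with the motif in capitals in whichever direction it lies, and positions count from the RefSeq start as 1. Matches before the start are shown within 60 bases, and those after it (Yars, Iars and the second match in Aars) within 30 bases. Asns, which encodes asparagine synthetase and is a known ATF4 target outside the members, is set beside them.
Aars, chr8:111033704-111033763, plus strand, -112 to -105: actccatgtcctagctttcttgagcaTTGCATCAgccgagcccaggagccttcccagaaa
Aars, chr8:111033840-111033869, plus strand, 10 to 17: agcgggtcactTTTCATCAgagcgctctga
Gars, chr6:55037941-55038000, plus strand, -30 to -23: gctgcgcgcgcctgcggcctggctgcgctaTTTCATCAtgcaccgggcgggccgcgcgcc
Tars, chr15:11399659-11399718, minus strand, -15 to -8: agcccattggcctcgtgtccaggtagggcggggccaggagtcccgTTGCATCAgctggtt
Iars, chr13:49682126-49682155, plus strand, 8 to 15: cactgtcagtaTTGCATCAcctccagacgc
Yars, chr4:129189895-129189924, plus strand, 4 to 11: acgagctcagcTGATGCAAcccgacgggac
Asns, chr6:7693210-7693269, minus strand, -23 to -16: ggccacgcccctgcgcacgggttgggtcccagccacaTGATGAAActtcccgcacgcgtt
The table of windows held no entry for Cars, Hars, Lars, Nars, Rars, Vars, Wars, Hars2 and Pars2. A match describes the letters in a window and does not show that a factor binds there.

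The libraries held between 8561687 and 19801300 expected counts, the most in cKO replicate 3, and the members had between 77 and 5360 expected counts in a library. Levels are given in CPM, the field's depth-normalised count, with library totals scaled by TMM, and every fold change is cKO over control from edgeR's quasi-likelihood test over 13711 genes, with Benjamini-Hochberg adjusted p values and standard errors (SE) on the log2 scale. Hif1a was at 716 and 663 CPM in cKO and at 530 and 552 CPM in control, and these totals include exons outside any deleted stretch, so they do not check the deletion. Heart muscle markers were abundant in every library (Myh7 between 10872 and 13228 CPM). Replicate 3 of cKO was the only library with Y-linked Ddx3y above 1 CPM (101 CPM) and with little Xist (2.11 CPM, against 1754 to 2097 CPM in the others), so the sexes were not balanced. Over all genes 70 passed the test (0.511%), 20 of them higher in cKO (0.146%).

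No synthetase passed edgeR's test in either set, and the smallest adjusted p was 0.18 for Lars. The cytosolic values were mostly small and positive, and the mitochondrial values were spread around 0. Of the 20 cytosolic members 17 had a positive log2 fold change, against 9 of 16 mitochondrial members and 49.9% of all genes tested. The median log2 fold change was 0.15 for the cytosolic set, 0.013 for the mitochondrial set and -0.0003 for all genes tested. Both cKO values lay above both controls for 11 cytosolic members and 1 mitochondrial member, which was the case for 19.4% of all genes. Both lay below both controls for 0 cytosolic members and 1 mitochondrial member, against 18.8% of all genes. At an unadjusted p under 0.05, edgeR had 6 cytosolic members higher (3.39% of all genes) and 0 lower (3.58%), and 0 mitochondrial members in either direction (6.97%). By the same measure DESeq2 had 4 cytosolic members higher (1.76% of all genes), limma-voom 7 (3.5%) and edgeR with a replicate block 8 (4.27%), and none of these had a mitochondrial member. After adjustment 0 synthetases were called by DESeq2, which called 0.7% of all genes (0.226% higher and 0.474% lower in cKO), 0 by limma-voom (0.532%) and 0 with the block (0.547%). The cytosolic median exceeded the mitochondrial one by 0.14, beside a pooled SD of that difference over libraries of 0.081. The set medians are descriptions of members chosen with earlier results known, and 2 libraries per group cannot give an exact permutation p below 0.33.

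**Figure D1:**
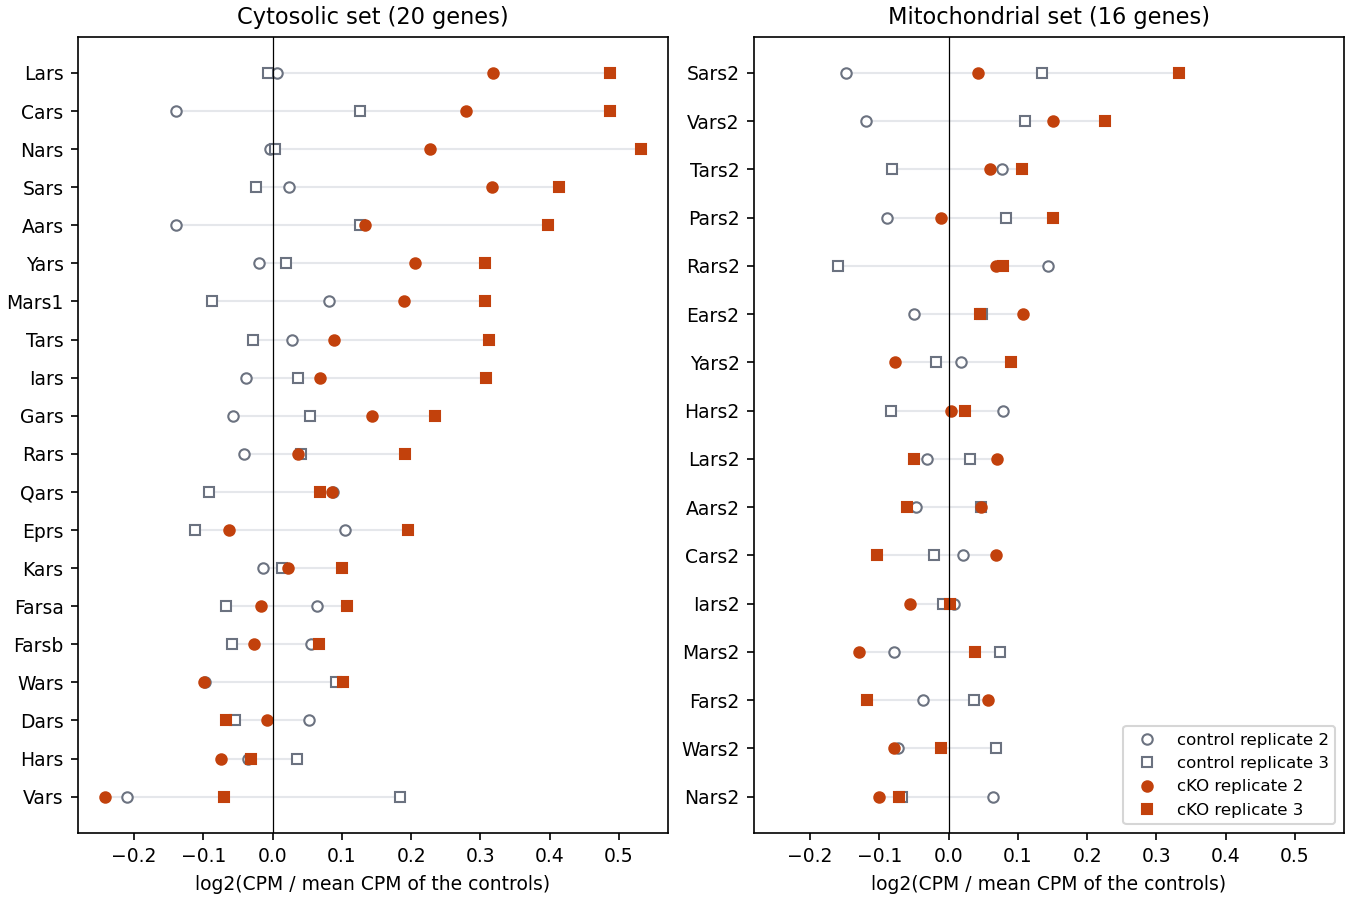
Each row is a synthetase gene and each point a library, placed at the log2 ratio of its CPM to the mean CPM of both controls (open symbols, control; filled symbols, cKO; circles, replicate 2; squares, replicate 3). For 11 of 20 cytosolic genes both filled symbols lie to the right of both open ones, against 1 of 16 mitochondrial genes.

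The highest fold changes among the cytosolic enzymes belonged to those for leucine, cysteine, asparagine and serine. Lars (ENSMUSG00000024493, GRCm38 chromosome 18, 42202298 to 42262194, minus strand), the leucyl enzyme, stood at 87.7 and 86.9 CPM in control replicates 2 and 3 and at 109 and 122 CPM in cKO replicates 2 and 3. Both cKO libraries were above both controls, which lay close together, and the log2 fold change was 0.41 ± 0.09 (SE, n = 2 per group, edgeR adjusted p = 0.18). Nars (ENSMUSG00000024587, chromosome 18, 64499647 to 64516652, minus strand), the asparaginyl enzyme, stood at 109.3 and 109.9 CPM in the controls and at 128 and 158 CPM in cKO. Its groups did not overlap, but the cKO libraries were farther from each other than the lower of them was from the controls (0.39 ± 0.11, edgeR adjusted p = 0.43), and without cKO replicate 3 the value was 0.23. Sars (ENSMUSG00000068739, chromosome 3, 108424865 to 108445209, minus strand), the seryl enzyme, stood at 74.2 and 71.8 CPM in the controls and at 90.9 and 97.2 CPM in cKO. Here the gap between the groups exceeded the distance between replicates of either group (0.37 ± 0.08, edgeR adjusted p = 0.219). Cars (ENSMUSG00000010755, chromosome 7, 143557230 to 143600090, minus strand), the cysteinyl enzyme, was the cytosolic member with the fewest CPM, at 21.3 and 25.6 in the controls and 28.4 and 32.9 in cKO. Its groups were separate, with replicates of each group differing by more than the gap between groups (0.39 ± 0.13, edgeR adjusted p = 0.545).

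For each of the 5 enzymes with the ATF4 motif in their window both cKO values lay above both controls (19.4% of all genes). Aars, the alanyl enzyme, stood at 101.2 and 121.6 CPM in the controls and at 122.2 and 146.8 CPM in cKO, so the nearest libraries of the groups nearly touched (log2 fold change 0.27 ± 0.12). Yars, the tyrosyl enzyme, stood at 56.7 and 58.3 CPM in the controls and 66.4 and 71.2 CPM in cKO (0.26 ± 0.09, edgeR unadjusted p = 0.0199, adjusted p = 0.595). Its 2 controls lay close together and both cKO libraries were clear of them. Tars, for threonine, had 66.2 and 63.6 CPM in control and 69.0 and 80.6 in cKO. Iars, for isoleucine, had 154 and 163 CPM in control and 166 and 196 in cKO. In both genes cKO replicate 2 was only just above the controls and cKO replicate 3 well above. Without cKO replicate 3 the log2 fold change was 0.13 for Aars, 0.088 for Tars and 0.068 for Iars. Without cKO replicate 2 it was 0.31 for Iars, and leaving out control replicate 2 gave 0.15 for Aars where leaving out control replicate 3 gave 0.41. Gars, the glycyl enzyme of both compartments, had the highest level per kilobase of any member and stood at 217 and 235 CPM in control and 250 and 266 CPM in cKO. Exosc6 shares 1326 exonic bases with Aars on the same strand, and Gm4849 matches Iars over 1656 bases at 96.0% identity. Neither has a row in the table, so the counts of Aars and Iars are uncertain. The log2 fold changes of these 5 ran from 0.19 to 0.27 with a median of 0.21. The 8 cytosolic members with a window but no match ran from -0.038 to 0.37 with a median of 0.068, and both cKO values lay above both controls in 3 of them, Kars, Mars1 and Sars. The 7 members without a window, among them Lars, Cars and Nars with the highest values of the set, ran from -0.15 to 0.41 with a median of 0.12, and 3 of them were separate and higher in cKO. Whether these hold the motif was not examined, and no test was made of the differences between these small groups. The letters ACGTG, the core of the element that HIF-1 is known to bind, were in 6 of 13 cytosolic and 4 of 14 mitochondrial members. They were in 19.6% of all windows. GCGTG, the other form of that core, was in 10 of 13 and 10 of 14, against 32.4% of all windows. In the list of amino acid response genes (the ATF4 list below) ACGTG was in 7 of 19 genes with a window and GCGTG in 12 of 19. The excess over all windows was thus not particular to the synthetases. Genes and windows were counted here as for the ATF4 motif, and whether HIF-1 binds these windows was not tested.

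**Figure D2:**
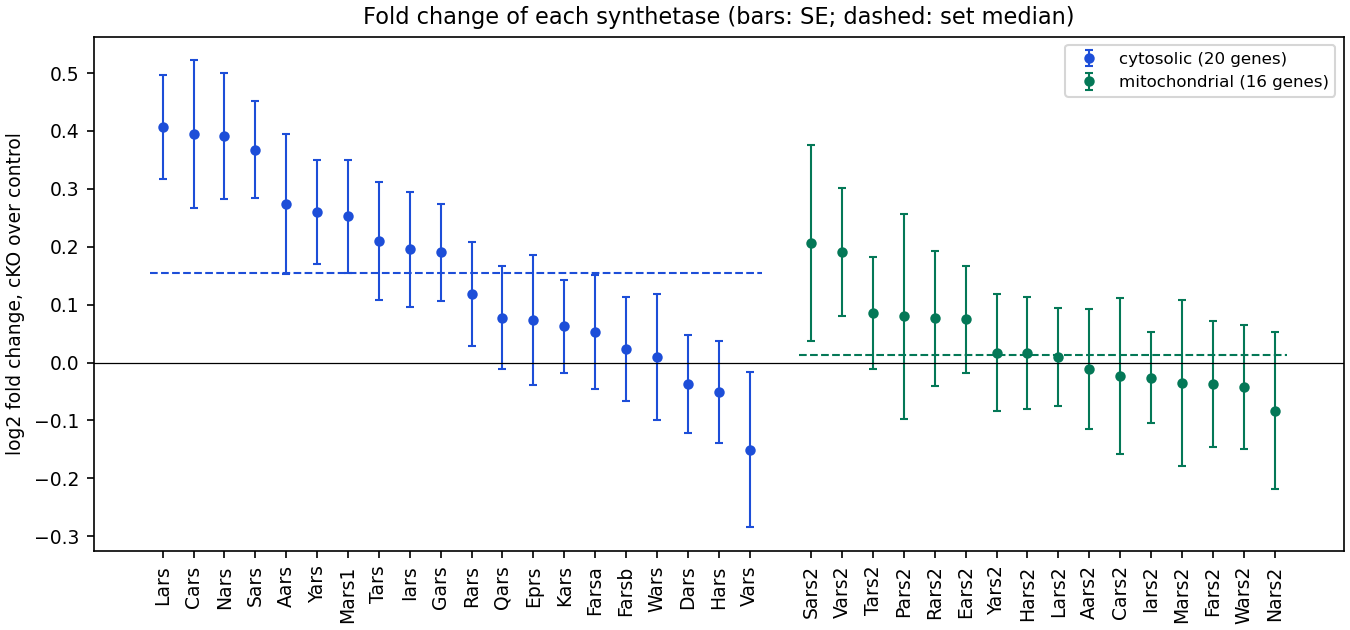
Points are the log2 fold changes of single synthetases, cKO over control, with bars of 1 SE from edgeR's fit, and dashed lines mark the set medians (0.15 cytosolic, 0.013 mitochondrial). No point passed the test after adjustment, and the mitochondrial points lie within -0.084 and 0.21.

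In animal cells 8 cytosolic synthetase genes encode enzymes held in a multisynthetase complex on the scaffold proteins AIMP1, AIMP2 and AIMP3 (genes Aimp1, Aimp2 and Eef1e1). The complex enzymes had a median log2 fold change of 0.098, with both cKO values above both controls in 4 of 8, and the 12 enzymes outside it had a median of 0.2, with 7 of 12 (19.4% of all genes). Within the complex the highest values were those of Lars and Mars1. Mars1, which charges the methionyl tRNA, had 66.4 and 59.1 CPM in control and 71.6 and 77.6 CPM in cKO (0.25 ± 0.10, edgeR adjusted p = 0.664). Mars1 shares 68 exonic bases with Ddit3, a known ATF4 target on the opposite strand, which stood at 11.1 and 9.48 CPM in control and 15.5 and 19.4 CPM in cKO. The library kit does not mark strand, so reads from that stretch cannot be assigned to either gene with certainty. Eprs, which carries the glutamyl and prolyl enzymes in 1 protein, had 253 and 218 CPM in control and 225 and 269 CPM in cKO, and its groups overlapped in part (0.073 ± 0.11). Dars, for aspartate, had 95.9 and 89.0 CPM in control and 92.0 and 88.3 CPM in cKO (-0.038 ± 0.08), with groups that overlapped. Qars, for glutamine, had 118 and 104 CPM in control and 118 and 117 CPM in cKO (0.078 ± 0.09), where control replicate 3 alone was lower. Rars, for arginine, had 84.0 and 89.0 CPM in control and 88.7 and 98.8 CPM in cKO (0.12 ± 0.09), and its groups overlapped slightly. Kars, for lysine, had 0.063 ± 0.08 with groups that nearly touched (122.8 and 125.3 CPM in control, 125.9 and 133.0 CPM in cKO). None of the 3 scaffold genes passed the test. Aimp1 had the smallest p among them (58.4 and 43.6 CPM in control, 63.3 and 55.7 CPM in cKO, log2 fold change 0.22 ± 0.14). Leaving out control replicate 2 gave 0.45 for Aimp1, and leaving out control replicate 3 gave 0.023.

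The remaining cytosolic members lay near the controls or below them. Farsa and Farsb, the subunits of the phenylalanyl enzyme, had log2 fold changes of 0.053 ± 0.10 and 0.023 ± 0.09, and in both genes the groups overlapped. Wars, for tryptophan, had 57.1 and 65.1 CPM in control and 57.1 and 65.6 CPM in cKO, nearly the same pair of values in each group (0.0095 ± 0.11). Hars, for histidine, had -0.052 ± 0.09. Its transcript overlaps that of Hars2 over 195 bases on the opposite strand with starts 197 bases apart, and their summed level was 99.3 and 98.5 CPM in control and 95.8 and 98.2 CPM in cKO. Vars, for valine, had the lowest value of the set at -0.15 ± 0.14 (61.1 and 80.3 CPM in control, 59.8 and 67.4 CPM in cKO). The Vars controls differed from each other by more than the groups did, and without control replicate 3 its log2 fold change was 0.061. By the structural classes of the enzymes, the 9 cytosolic class I genes had a median of 0.20 and the 10 class II genes a median of 0.13, with 5 of 9 and 6 of 10 separate and higher in cKO, against 19.4% of all genes. Eprs holds an enzyme of each class and is left out of that count.

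The mitochondrial enzymes showed a narrow spread, with log2 fold changes between -0.084 for Nars2 and 0.21 for Sars2 and an SD over members of 0.083, against 0.16 over the cytosolic members. The SD over all genes, 0.45, takes in extreme values from -9.37 to 13.3, and the quartiles of all genes were -0.11 and 0.12. Of the 16 mitochondrial members 2 lay above the upper quartile and 0 below the lower, against 11 and 1 of the 20 cytosolic members. Lars2 stood at 121 and 126 CPM in control and at 130 and 119 CPM in cKO, and its groups overlapped fully (0.0095 ± 0.08). Iars2, the most abundant of the set, had 155 and 153 CPM in control and 148 and 154 CPM in cKO (-0.026 ± 0.08); it shares 2034 exonic bases with Rab3gap2 on the opposite strand, which makes its level uncertain. Vars2 was the 1 member with both cKO values above both controls, at 24.8 and 29.1 CPM in control and 29.9 and 31.5 CPM in cKO (0.19 ± 0.11, edgeR adjusted p = 0.768). Leaving out control replicate 2 gave 0.081 for it, and leaving out control replicate 3 gave 0.31. Nars2 was the 1 with both below, at 16.7 and 15.2 CPM in control and 14.9 and 15.17 in cKO, and the nearest libraries of the groups almost touched. Sars2, at 12.1 and 14.7 CPM in control and 13.8 and 16.8 CPM in cKO, had groups that overlapped (0.21 ± 0.17), and its value ran from 0.040 without cKO replicate 3 to 0.35 without control replicate 3. Rars2, for arginine, had 33.5 and 27.1 CPM in control, which enclosed its cKO values of 31.8 and 32.0 CPM. Together with Tars2, Pars2 and Ears2 it lay between 0.074 and 0.086 in log2 fold change. Yars2, Hars2, Aars2, Cars2, Mars2, Fars2 and Wars2 lay between -0.042 and 0.017. Pars2 was the least abundant member at 9.1 to 10.7 CPM. The standard errors of the set ran from 0.078 to 0.18.

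The ratio of a cytosolic to a mitochondrial synthetase within a library does not depend on how libraries are scaled. Summed over the sets, cytosolic counts were 3.07 times the mitochondrial counts in each control, 3.21 times in cKO replicate 2 and 3.56 times in cKO replicate 3. The cytosolic sum was 1901 and 1953 CPM of the unscaled library totals in control and 2018 and 2279 in cKO, while the mitochondrial sum was 619 and 636 in control and 629 and 640 in cKO. For 13 amino acids each compartment has 1 gene of its own among the members. The ratio was on average higher in cKO for 11 of these 13 pairs, with both cKO libraries above both controls for 7 and both below for 1, and the median difference in the log2 ratio was 0.22. Ratios of other gene pairs were not computed, so these counts have no background share beside them. The largest difference was for asparagine, where Nars over Nars2 was 6.56 and 7.22 in control and 8.63 and 10.4 in cKO. For leucine, Lars over Lars2 was 0.725 and 0.688 in control and 0.838 and 1.02 in cKO. For cysteine, Cars over Cars2 was 1.25 and 1.55 in control and 1.62 and 2.10 in cKO. The ratio was on average lower for histidine, where the groups overlapped (1.64 and 1.93 in control, 1.69 and 1.71 in cKO), and for valine, where they did not, with Vars over Vars2 at 2.46 and 2.76 in control and 2.00 and 2.14 in cKO.

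**Figure D3:**
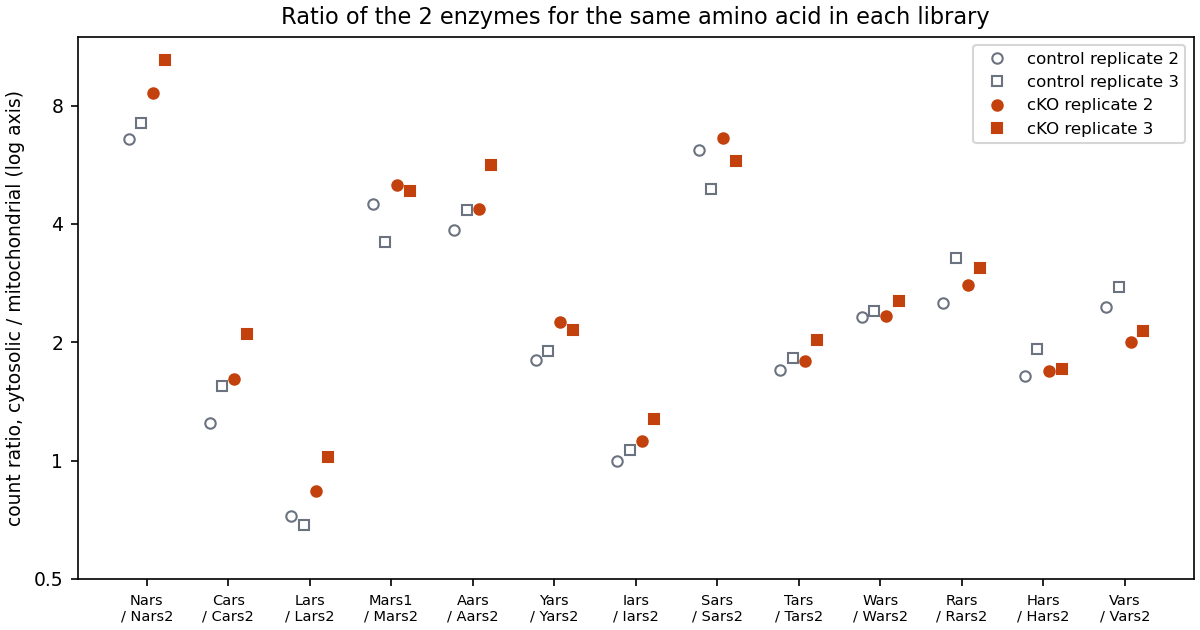
For each of 13 amino acids, points give the ratio of expected counts of the cytosolic gene to those of the mitochondrial gene in each library, on a log axis (open symbols, control; filled symbols, cKO). Both filled symbols lie above both open ones for 7 pairs and below them for Vars over Vars2. Ratios of other gene pairs were not computed for comparison.

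Levels between genes were compared per kilobase of the longest deposited coding transcript. In the controls the cytosolic set had a median of 26.9 CPM per kilobase, from 7.27 for Cars to 94.9 for Gars, and the mitochondrial set a median of 9.75, from 1.38 for Mars2 (whose transcript is listed at 11294 bases) to 31.8 for Lars2. In 11 of the 13 pairs the cytosolic gene had the higher level per kilobase in all 4 libraries. The others were leucine, where the level of Lars per kilobase was 0.709 and 0.673 of that of Lars2 in control and 0.82 and 1.0 of it in cKO, and cysteine, where Cars was at 0.736 and 0.914 of Cars2 in control and 0.954 and 1.24 of it in cKO. Lars2 was the mitochondrial gene with the highest level per kilobase.

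The cKO libraries differed between themselves in the cytosolic set. Replicate 3 exceeded replicate 2 for 18 of 20 cytosolic and 11 of 16 mitochondrial members, against 49.6% of all genes. From the control mean the median difference in log2 CPM over the cytosolic set was 0.078 for cKO replicate 2 against 0.22 for cKO replicate 3, while control replicate 3 minus control replicate 2 was 0.018. Without cKO replicate 3 the median log2 fold change of the cytosolic set was 0.077, 13 of 20 were positive, and the cytosolic median exceeded the mitochondrial one by 0.034 rather than 0.14. Without cKO replicate 2 the cytosolic median was 0.22. In the mitochondrial set the median differences from the control mean were 0.048 and 0.033 in cKO replicates 2 and 3. Control replicate 3 minus control replicate 2 was 0.068 in that set, a distance between 2 libraries and not from their mean. Replicate 3 of cKO was also the deepest library and the only male, and the part of sex in the result was not tested. For depth, its counts were thinned to 9979406. The cytosolic median was then 0.148 against 0.154 with all counts, and its excess over the mitochondrial median 0.135 against 0.142.

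Among genes that act with the synthetases, elongation factors and the machinery of mitochondrial translation were tested in the same fit, and none passed. All 5 cytosolic elongation factors had positive values (median log2 fold change 0.13), and the smallest p was that of Eef1b2, an exchange factor for the protein that delivers charged tRNA (401 and 320 CPM in control, 444 and 419 CPM in cKO, 0.26 ± 0.11), for which leaving out control replicate 2 gave 0.43 and leaving out control replicate 3 gave 0.11. The 9 mitochondrial translation factors had a median of 0.041, with Tufm, the mitochondrial counterpart of the delivery protein, at 0.14 ± 0.08. Qrsl1, a subunit of the amidotransferase that makes mitochondrial glutaminyl-tRNA in the absence of a mitochondrial glutaminyl enzyme, had 0.29 ± 0.12 (23.4 and 23.8 CPM in control, 26.0 and 31.2 CPM in cKO), in a list of 4 with a median of 0.11, and 0.14 without cKO replicate 3. The 6 editing and deacylation genes had a median of 0.062. Their smallest p was that of Aarsd1, which removes serine wrongly attached to alanyl tRNA, at 11.2 and 13.6 CPM in control and 23.6 and 19.3 CPM in cKO (0.77 ± 0.16, edgeR adjusted p = 0.153). Aarsd1 shares 1250 exonic bases with Gm27029 on the same strand, to which fewer reads were assigned in cKO (15.4 and 15.5 CPM in control, 4.15 and 9.95 CPM in cKO). The sum of the 2 genes was 26.6 and 29.1 CPM in control and 27.7 and 29.2 CPM in cKO, with a log2 fold change of 0.035 ± 0.10, so the value of Aarsd1 alone depends on how reads were divided.

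Among the sensors of uncharged tRNA none passed the test, and in the list of amino acid response genes 3 members did. The log2 fold changes of the 3 sensor genes lay between -0.059 and 0.045, with Eif2ak4 at 39.7 and 36.4 CPM in control and 38.2 and 35.1 CPM in cKO. Of 21 measured genes of the ATF4 list (Nupr1 did not pass the filter) 3 rose in edgeR's test (0.146% of all genes) and 0 fell (0.365%). The genes that rose were Asns, Phgdh and Mthfd2, which make asparagine, begin serine synthesis and serve the mitochondrial folate cycle. Asns went from 15.1 and 16.4 CPM in control to 39.2 and 55.6 CPM in cKO (1.60 ± 0.17, edgeR adjusted p = 0.00595). Phgdh had a log2 fold change of 0.80 ± 0.10 (edgeR adjusted p = 0.0172) and Mthfd2 one of 0.99 ± 0.16 (edgeR adjusted p = 0.0478). Each of the 3 calls was lost without certain libraries. Asns had an edgeR adjusted p of 0.0766 without control replicate 2 and 0.0706 without control replicate 3, and Phgdh 0.0652 without cKO replicate 3 and 0.0766 without control replicate 2. Mthfd2 had 0.0768 without cKO replicate 3, 0.179 without control replicate 2 and 0.229 without control replicate 3 by the same test. Their log2 fold changes in these fits, each with 1 residual degree of freedom, were 1.54 and 1.66 for Asns, 0.72 and 0.71 for Phgdh, and 0.71, 0.90 and 1.07 for Mthfd2. Over the list both cKO values lay above both controls for 17 of 21 genes (19.4% of all genes), and the median difference from the control mean was 0.37 for cKO replicate 2 against 0.83 for cKO replicate 3. All these differences use the same 2 control libraries, so the lists are set side by side and not tested against each other.

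**Figure D4:**
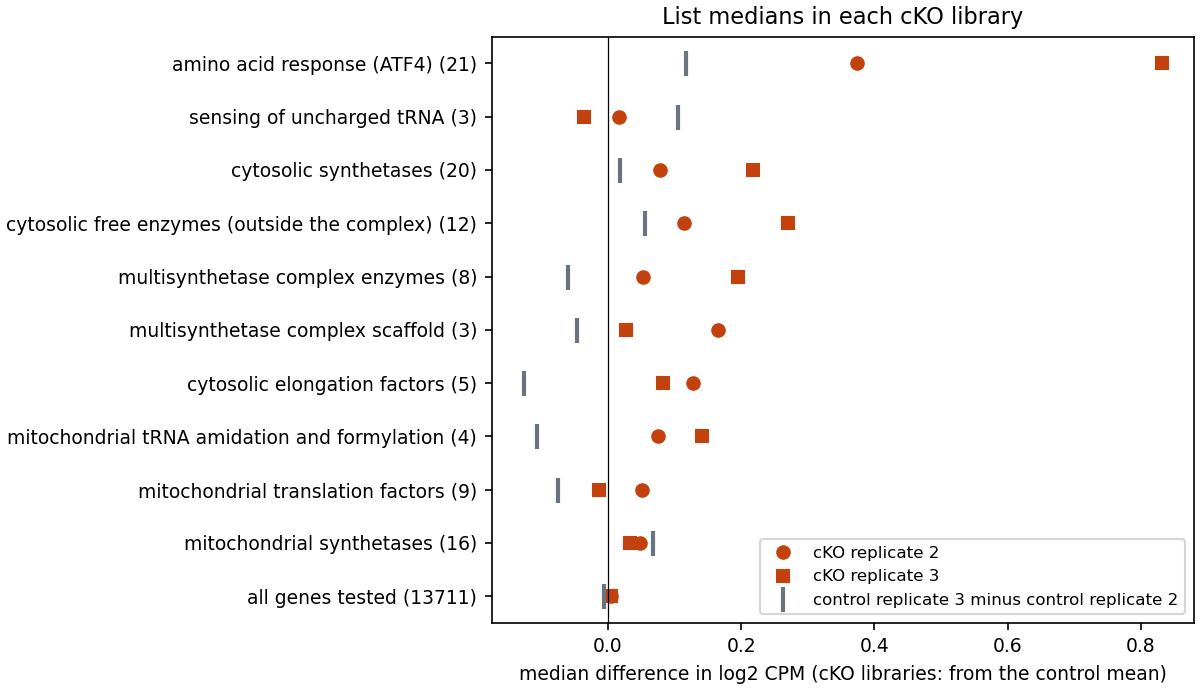
Points give the median over each list of the difference in log2 CPM between a cKO library and the control mean, with the number of measured genes in brackets, and grey bars the median difference between the controls. The cytosolic synthetases stand at 0.078 and 0.22 and the ATF4 list at 0.37 and 0.83, with cKO replicate 3 the higher in both, whereas the mitochondrial synthetases stand at 0.048 and 0.033.

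Some markers listed for other cells in the ventricle differed with the groups or with single libraries, and 1 of them, epicardial Krt19, fell in edgeR's test. In bulk tissue fewer cells of a type and less RNA per cell cannot be told apart. The summed level of 6 smooth muscle and pericyte genes was 711 to 825 CPM in cKO and 1102 to 1131 in control. Most of it came from Acta2 (497 and 599 CPM in cKO, 833 and 862 in control) and Tagln (118 and 122 in cKO, 169 and 151 in control), neither of which passed the test, and Pdgfrb and Rgs5 had groups that overlapped. Cspg4 had 68.2 and 67.9 CPM in cKO and 71.5 and 79.6 in control. Myh11 of the same list was under 1 CPM in every library and did not pass the filter, so the difference in the sum was not shared by the whole list. The sum of 7 endothelial and endocardial genes, all with negative log2 fold changes, was 1019 to 1113 CPM in cKO and 1206 to 1273 in control. The 7 erythroid genes summed to 2299 CPM in cKO replicate 2, against 5490 in cKO replicate 3 and 4408 to 5001 in control. The 5 cushion mesenchyme genes summed to 106 CPM in cKO replicate 2, against 276 in cKO replicate 3 and 210 to 224 in control. Among them Col2a1 was lower in both cKO libraries (5.46 and 36.1 CPM, against 78.8 and 64.9 in control) and did not pass the test. The other 4 had positive log2 fold changes with groups that overlapped. The 7 heart muscle genes summed to between 27355 and 30223 CPM in all libraries. Of these genes 2 had positive and 5 negative log2 fold changes, and 0 passed edgeR's test. Nkx2-5, the gene that holds Cre in cKO, had 44.3 and 42.1 CPM in cKO and 55.9 and 64.9 in control (-0.49 ± 0.10, edgeR adjusted p = 0.153). The 6 epicardial genes summed to 240 to 328 CPM in cKO and 305 to 336 in control. The 4 atrial genes summed to 23.8 to 26.2 CPM in cKO and 28.3 to 32.5 in control, and the 5 immune genes to 31.8 to 34.6 and 28.3 to 66.8. Liver markers Alb, Afp and Apoa1 and the neural crest marker Sox10 were under 1 CPM in every library. The part of these differences in the synthetase values was not tested.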

How the data were processed

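Polyadenylated RNA was sequenced from 4 libraries. The authors deposited expected counts per gene (estimates from RSEM, often fractional); CASAVA 1.8.2, cutadapt 1.3, RSEM 1.2.3 and GRCm38 are named, per the submitters' processing notes, and the annotation is not given in the sources used here. Expected counts were rounded. Genes passing edgeR's filter by group (minimum count 10, minimum total 15) numbered 13711, and edgeR 4.0.16 (R 4.3.3, TMM, glmQLFit, glmQLFTest, 2 residual degrees of freedom, threshold 0.05) compared the groups. The steps were tested on simulated data, where 48% of 50 genes changed 1.5-fold and 74% of 50 changed 2-fold were called. The simulated variance of a gene followed its level alone, and single libraries differed in depth only. These shares therefore need not hold in the real libraries. Smaller changes were not simulated, and the largest fold among the members was 1.33 for Lars. Each SE was derived from the fold change and its F statistic (log2 change over root F). Differences in log2 CPM used a prior count of 2.

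Symbols, coordinates, overlaps and transcript lengths came from GENCODE M21 (GRCm38); Mars1 was matched through a RefSeq synonym. BLAST 2.17.0 (GENCODE transcripts in the same direction, at least 95% identity over 300 bases) matched Iars to the copy Gm4849 and Aars to Exosc6. Exosc6 overlaps Aars, and neither Gm4849 nor Exosc6 has a row in the table. The members, gene lists, motifs and the ratio of the sets were chosen with earlier results of these data known. Named genes are all members and, of each other list, the gene with the smallest p and those past the threshold; Atf4-list gene Ddit3, Gm27029, Hif1a, sex-linked genes and markers were named after their values were seen. Alternatives were DESeq2 1.42.0, limma-voom (limma 3.58.1), other scalings and filters, thinning, the replicate block and each library left out.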

Additional observations from a re-analysis of the deposited data

How the results depend on the processing

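No synthetase was called under any of the 8 other settings or with any library left out (edgeR's quasi-likelihood test unless DESeq2 or limma-voom is the setting). Genes called numbered 39 to 141 with 1 library left out, with 39 without control replicate 3 and 141 without cKO replicate 2, where each lone library is assumed to vary like the other group. The cytosolic median log2 fold change was 0.15 to 0.18 under the other settings and 0.077 to 0.22 in leave-outs, and its excess over the mitochondrial median 0.14 under each other setting and 0.034 to 0.18 in leave-outs, both lowest without cKO replicate 3; the cause was not tested. The mitochondrial median ran from -0.0027 to 0.043 in leave-outs. Of the 36 members 18 changed sign in a leave-out, with ranges of log2 fold change of -0.090 to 0.017 for Dars, -0.063 to 0.20 for Eprs, -0.015 to 0.12 for Farsa, -0.033 to 0.081 for Farsb, -0.0089 to 0.17 for Qars, -0.33 to 0.061 for Vars, -0.099 to 0.11 for Wars, -0.059 to 0.046 for Aars2, -0.10 to 0.069 for Cars2, -0.12 to 0.057 for Fars2, -0.063 to 0.097 for Hars2, -0.056 to 0.0035 for Iars2, -0.049 to 0.070 for Lars2, -0.13 to 0.041 for Mars2, -0.012 to 0.17 for Pars2, -0.069 to 0.23 for Rars2, -0.11 to 0.032 for Wars2 and -0.077 to 0.092 for Yars2. Eif2ak4 ran from -0.12 to 0.0077. With sign kept, Kars ran from 0.022 to 0.10, Rars from 0.036 to 0.19, Hars from -0.087 to -0.015, Ears2 from 0.028 to 0.13, Tars2 from 0.0082 to 0.17, Nars2 from -0.15 to -0.018 and Tufm from 0.091 to 0.19. Of the cytosolic members 12 stayed positive in every leave-out, and of the mitochondrial members 4. Upper-quartile scaling turned Aars2 to 0.0095 and no other member. With the replicate block, genes called numbered 75 against 70 and the set medians were 0.15 and 0.011; across genes, the deviations of libraries that share a number had a correlation of 0.106, and no label ties the numbers to a shared source. Mthfd2 also lost its call without the filter, with a mean of at least 5 CPM and under limma-voom (adjusted p 0.0764, 0.0703 and 0.0678), where its log2 fold change was 0.99, 0.98 and 0.98 against 0.99. Summing Aarsd1 with Gm27029 was chosen after seeing the data. Summing members with near-identical copies could not be run: the copy of Iars, Gm4849, has no row in the table. The search found no copy of another member apart from its own locus. It covered annotated transcripts in the same direction only, so copies in the opposite direction were not looked for.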
